A study of Mus musculus with 4 samples.

Results

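The genes described here are 10 matrix metalloproteinases other than the membrane-type subgroup: the secreted enzymes Mmp2, Mmp3, Mmp8, Mmp9, Mmp10, Mmp11, Mmp12, Mmp13 and Mmp19, and Mmp23, a type II membrane protein. They were taken as every probe set annotated to exactly 1 of these symbols, which gave 13 of the 45037 non-control probe sets on the array. Mmp9, Mmp19 and Mmp23 had 2 probe sets each and the other 7 genes had 1. No probe set carried one of these symbols together with another gene's, and all 13 kept their symbol when matched by gene ID to RefSeq (assembly GRCm38.p6). The tissue was whole inguinal mammary gland of mice at postnatal day 10, hybridized as biotin-labelled RNA to Affymetrix 3′ expression arrays. There were 2 arrays of Mt2-mmp(-/-) mice, which lack Mt2-mmp (symbol Mmp15, a membrane-type metalloproteinase) in all tissues, and 2 arrays of Mt2-mmp(+/+) littermates, every animal congenic on C57Bl/6J. Arrays of 1 genotype are labelled as biological replicates, and it is not stated whether an array holds 1 mouse or a pool, which part of the gene was deleted, or the sex of the mice. The knockout itself was not checked on the targeted gene, for which no probe set was analysed here.

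Matrix metalloproteinases are zinc-dependent endopeptidases, made as inactive proenzymes whose propeptide blocks the active site until it is removed. Together they cut collagens, gelatins, laminin, fibronectin, elastin and many cell surface and signalling proteins, and they are held in check by the tissue inhibitors of metalloproteinases (TIMPs). In the mammary gland most secreted members are products of stromal or immune cells rather than of the epithelium, and Mmp2 and Mmp3 are known for roles in ductal elongation and side branching of the developing mouse gland. Membrane-type enzymes can activate the Mmp2 proenzyme at the cell surface.

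Array values are given in the order array 1, array 2 of each genotype. They are the deposited RMA log2 values, and differences are knockout minus wild type on that scale, with n = 2 arrays per genotype. In a whole gland, fewer cells of a type and less RNA per cell cannot be told apart. Across all non-control probe sets the arrays correlated between 0.995 and 0.997. Hair follicle genes stood apart in one knockout and one wild-type array: the summed linear signal of 12 measured markers of hair follicle and epidermis was 5368 in knockout 1 and 654 in knockout 2, against 697 in wild type 1 and 4668 in wild type 2. Krt25, a keratin of the hair root sheath, had 10.44 and 3.70 on the knockout arrays, against 3.99 and 10.47 on the wild-type arrays, while Krt10, a keratin of epidermis, lay between 7.16 and 7.22 on all arrays. Of 11 mammary epithelial markers 10 had negative differences, with summed signals of 3381 and 3137 on the knockout arrays, against 4017 and 3841 on the wild-type arrays. For 5 adipocyte markers the sums were 23619 and 24881 on the knockout arrays, against 24501 and 23943 on the wild-type arrays. Their differences were positive in 3 and negative in 2. The sums hide Lep, the leptin gene, with 8.15 and 8.16 on the knockout arrays, against 6.72 and 5.20 on the wild-type arrays (2.19, limma adjusted p = 0.697). Markers of the labelled tissue were present, with Epcam, an epithelial adhesion molecule, at 9.21 to 9.54 and Adipoq, the adipocyte hormone adiponectin, at 13.14 to 13.26.

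Background hybridization was read from 23 nonspecific control probe sets, whose probes have from 3 to 25 G or C bases. Values were highest for the most GC-rich controls. The top one, with 25 G or C bases, lay alone at 6.78 to 6.96, and all others lay between 2.84 and 4.57. Only Mmp2 and both probe sets of Mmp23 exceeded every control on all 4 arrays, 3 of 13 member probe sets against 29.4% of all non-control probe sets. The single top control decided that count. Against the second highest control 9 of 13 passed on all 4 arrays, against 59.3% of all probe sets. Against the 95th percentile of the controls 9 also passed, against 59.4%, and against the median control 12 of 13 passed, against 96.2%. Probe sets differ in affinity, so values are not ranked between genes. The plot of levels by array sets each member beside these controls.

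**Figure D1:**
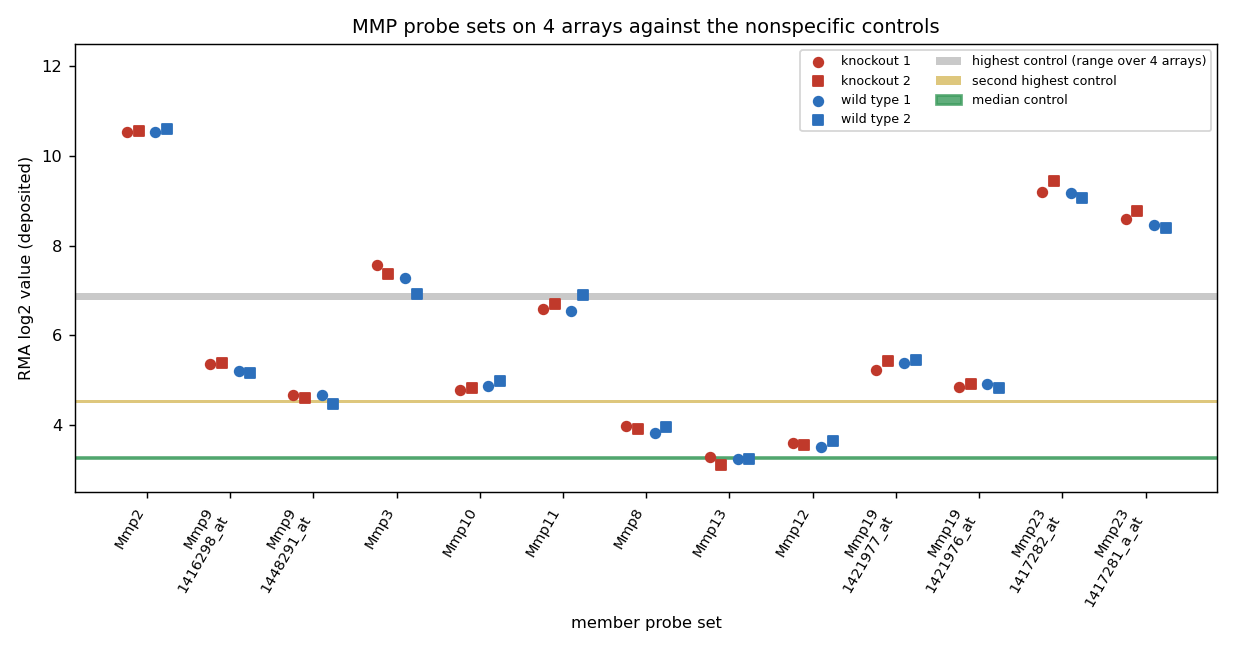
Deposited log2 value (vertical axis) of the 13 member probe sets on the 2 knockout (red) and 2 wild-type (blue) arrays, with bands for the highest, second highest and median nonspecific control. Mmp2 and Mmp23 stand above all bands, Mmp3 and Mmp11 lie at or near the top band, and Mmp8, Mmp12 and Mmp13 lie below the second highest control on every array.

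No member probe set differed between genotypes past the threshold. By limma over all 45037 probe sets, adjusted p-values of the 13 ranged from 0.732 to 1.00, and 0 of 13 passed an adjusted p of 0.05, against 0.00444% of all probe sets. The probe sets that passed were 1 of Gadd45gip1, a mitochondrial ribosome protein, and 1 of Prdx2, a peroxiredoxin, named after their values were seen. At an unadjusted p under 0.05 there were 3 member probe sets, all with positive differences (Mmp3, the brighter Mmp9 probe set and 1 Mmp23 probe set), against 3.48% of all probe sets in that direction, and 0 with negative ones, against 3.17% (6.65% in either direction). The 2 genotypes did not overlap in 5 of 13, against 36.4% of all probe sets; knockouts were above in 4, against 17.8%, and below in 1, against 18.6%. Differences were above 0 in 8 of 13, against 49.3% of all probe sets. The median member difference was 0.017 and the median size of a difference was 0.086, against -0.0012 and 0.067 over all probe sets. With 2 arrays a side, 0.333 is the smallest p that exact permutation allows, so every p rests on limma's variance model.

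**Figure D2:**
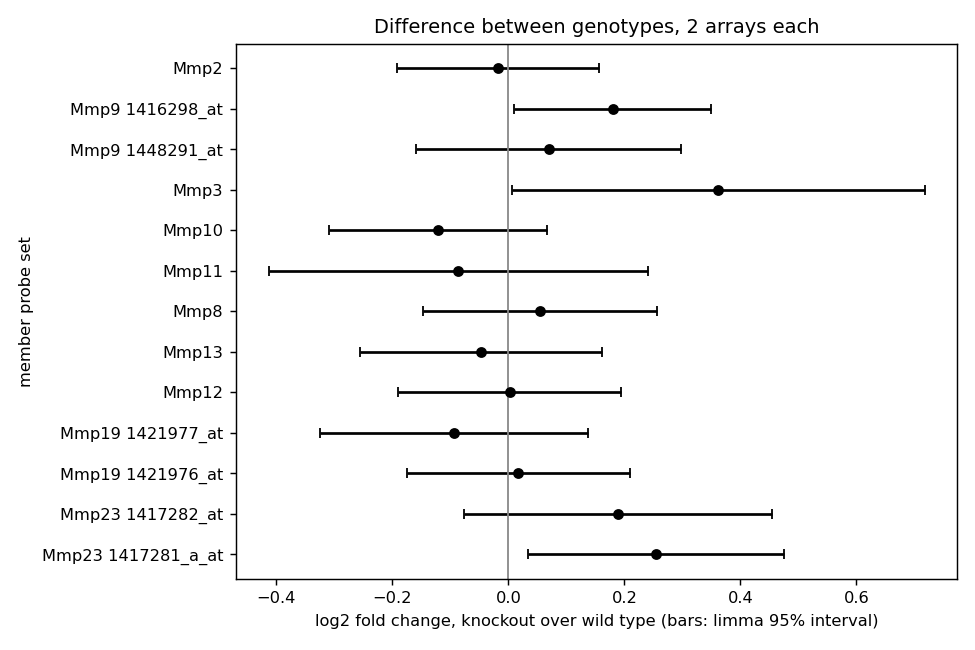
Log2 fold change of knockout over wild type (horizontal axis) for the 13 member probe sets, with limma's 95% interval as bars, 2 arrays per genotype. The intervals of Mmp3, Mmp9 (1416298_at) and Mmp23 (1417281_a_at) lie just above 0, those of the other 10 probe sets include 0, and no member passed adjustment over all probe sets.

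The gelatinases Mmp2 and Mmp9 degrade denatured collagen and type IV collagen of basement membranes. Mmp2 was the member with the steadiest values. It read 10.53 and 10.57 on the knockout arrays, against 10.53 and 10.60 on the wild-type arrays. The genotypes overlapped, and all 4 arrays lay within 0.072 of each other, against a median range of 0.189 over all probe sets. The difference was -0.018 (SE 0.070, 95% interval -0.19 to 0.16), which in linear terms spans 0.875-fold to 1.11-fold (limma adjusted p = 0.993). Mmp2 lies on chromosome 8, as the targeted gene does, with 80 genes between them in the RefSeq order, of which 49 are protein-coding; 41 of the 80 were measured.

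Mmp9 was read by probe sets that differ in brightness and in what they showed. The brighter one, 1416298_PM_at, had 5.36 and 5.38 on the knockout arrays, against 5.22 and 5.16 on the wild-type arrays. Both knockout arrays lay above both wild-type arrays, by 0.18 in the mean (SE 0.068, interval 0.010 to 0.35, limma unadjusted p = 0.0412, adjusted p = 0.746). The dimmer one, 1448291_PM_at, had 4.67 and 4.61 on the knockout arrays, against 4.67 and 4.47 on the wild-type arrays. Here the genotypes overlapped, and the difference of 0.069 (SE 0.091) was smaller than the gap of 0.20 between the wild-type arrays. On wild type 2 this dimmer probe set lay below the second highest nonspecific control, and neither Mmp9 probe set reached the highest control on any array.

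Neutrophils and macrophages are known sources of Mmp9, and most of their markers had negative differences. Of 8 measured neutrophil markers 7 had negative differences, with a summed signal of 653 and 837 on the knockout arrays, against 941 and 884 on the wild-type arrays. The neutrophil protein S100a9 had 7.85 and 8.25 on the knockout arrays, against 8.64 and 8.50 on the wild-type arrays (-0.52, limma adjusted p = 0.721). The granule protease Elane had -0.37 (limma adjusted p = 0.721). All 10 macrophage markers had negative differences, with summed signals of 4825 and 5159 on the knockout arrays, against 5626 and 5303 on the wild-type arrays. Only 2 of the 8 neutrophil markers, S100a8 and S100a9, exceeded every control on all arrays, and the 1 with a positive difference was Ngp, a granule protein (0.24). Of the macrophage markers 8 of 10 exceeded every control, against 43.5% of all genes. No marker of either list passed, and the part of these cells in the Mmp9 values was not tested.

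Mmp3, Mmp10, Mmp8, Mmp12 and Mmp13 sit together on chromosome 9. In the RefSeq order Mmp13 and Mmp12 are adjacent, Mmp1b stands between Mmp12 and Mmp3, Mmp1a between Mmp3 and Mmp10, and no other protein-coding gene between Mmp10 and Mmp8. Many genes of this cluster are known to be induced through AP-1, the Fos and Jun dimer that binds TGANTCA. The letters TGANTCA, read on both strands (the motif is its own reverse complement), were looked for within 250 bases upstream of annotated starts. There were 9 RefSeq promoter windows of 7 members, and none for Mmp2, Mmp9 and Mmp19. The motif was found in 4 of the 7 members, namely Mmp3, Mmp10, Mmp12 (only 1 of its windows) and Mmp13. The share over 32851 promoter windows of that length was 6.75%, counted by window and not by gene. The motif TATAAA, on either strand, was found in Mmp3, Mmp10 and Mmp13, against 12.4% of windows. A match is a description of the letters and not evidence of binding. The 3 promoters with both motifs are shown, all from the chromosome 9 cluster. Against the controls, by 1 probe set each, Mmp3 was near or above the top control and Mmp10 lay between the top 2 controls. Mmp13 lay among the dim controls. Such levels are not ranked between genes, and a link to the promoter letters was not tested. Sequences are RefSeq, GRCm38.p6, plus strand, 5′ to 3′, ending 1 base before the annotated start, at chr9:7445572-7445821 for Mmp3, chr9:7502092-7502341 for Mmp10 and chr9:7272264-7272513 for Mmp13. Capitals mark TGANTCA and TATAAA.
Mmp3: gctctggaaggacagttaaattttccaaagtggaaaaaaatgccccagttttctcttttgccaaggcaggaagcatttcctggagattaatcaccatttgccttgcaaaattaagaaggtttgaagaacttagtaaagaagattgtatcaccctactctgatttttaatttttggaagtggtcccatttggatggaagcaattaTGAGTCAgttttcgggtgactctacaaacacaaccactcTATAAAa
Mmp10: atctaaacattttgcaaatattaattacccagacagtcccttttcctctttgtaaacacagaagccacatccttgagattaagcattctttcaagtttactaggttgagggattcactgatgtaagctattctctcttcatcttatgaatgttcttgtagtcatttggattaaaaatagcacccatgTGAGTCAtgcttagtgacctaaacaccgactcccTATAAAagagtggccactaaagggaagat
Mmp13: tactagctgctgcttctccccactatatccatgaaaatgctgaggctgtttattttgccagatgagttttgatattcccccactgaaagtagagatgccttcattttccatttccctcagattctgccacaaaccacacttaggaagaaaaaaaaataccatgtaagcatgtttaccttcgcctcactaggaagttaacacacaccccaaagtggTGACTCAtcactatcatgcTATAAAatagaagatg
The first base of TGANTCA stood 46 bases before the annotated start in Mmp3, 63 in Mmp10 and 35 in Mmp13, and that of TATAAA 7, 29 and 16 bases before it.

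The stromelysins cut proteoglycans, laminin and fibronectin and can activate other proenzymes. Mmp3 had the largest difference among the 13 probe sets. It read 7.56 and 7.37 on the knockout arrays, against 7.29 and 6.92 on the wild-type arrays. Both knockout arrays lay above both wild-type arrays, but knockout 2 exceeded wild type 1 by less than either genotype's own spread (means of 7.47 ± 0.133 for knockout and 7.10 ± 0.262 for wild type, SD over 2 arrays). The difference was 0.36 (SE 0.142, interval 0.0059 to 0.72), or 1.29-fold, with a limma unadjusted p of 0.0474 and an adjusted p of 0.749. It leaned on wild type 2: without that array it was 0.18, and without wild type 1 it was 0.55. On wild type 2 Mmp3 also lay just under the highest nonspecific control (6.92 against 6.93), while it exceeded that control on the other 3 arrays.

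Fibroblasts are a known source of Mmp3 in the mammary stroma, and 8 of 10 measured markers were lowest on wild type 2, as Mmp3 was. That order was not particular to fibroblast markers. It was also found in 11 of 15 matrix substrates and 3 of 5 adipocyte markers, but in 2 of 10 macrophage and 0 of 11 mammary epithelial markers. The share among all genes is not given here. Of the 10 fibroblast markers 9 had positive differences, with summed signals of 19658 and 20597 on the knockout arrays, against 19381 and 17735 on the wild-type arrays. Thy1, a surface glycoprotein of fibroblasts, had 9.22 and 9.37 on the knockout arrays, against 9.15 and 8.75 on the wild-type arrays (0.35, adjusted p = 0.756), and Fap, a fibroblast surface protease, had 9.36 and 9.46 on the knockout arrays, against 9.30 and 9.03 on the wild-type arrays (0.25, adjusted p = 0.771). The markers of smallest p were Pi16, with 0.30 (limma adjusted p = 0.721) and its lowest value on wild type 1, and Mfap5, with 0.20 (limma adjusted p = 0.746). Mmp3 was highest on knockout 1, where 2 of the 10 markers, Fbln1 and Dcn, were also highest, and 7 were highest on knockout 2. The 1 marker with a negative difference was Pdgfra, a growth factor receptor, at -0.18 and values under the highest control. No fibroblast marker passed, and the part of fibroblast content in the Mmp3 values was not tested.

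**Figure D3:**
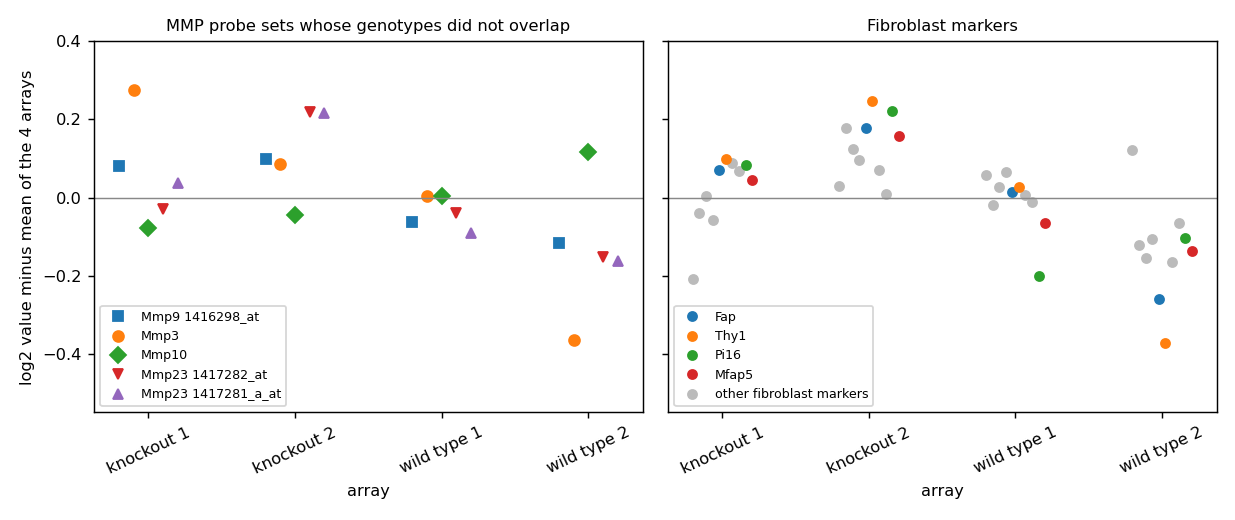
Log2 value minus the mean of the 4 arrays (vertical axis) for the 5 member probe sets whose genotypes did not overlap (left) and for 10 fibroblast markers (right), by array. Mmp3 is highest on knockout 1 and lowest on wild type 2, both Mmp23 probe sets are highest on knockout 2, and most fibroblast markers are lowest on wild type 2.

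Mmp10, the stromelysin closest to Mmp3 in sequence and position, had a difference of the opposite sign. It had 4.79 and 4.82 on the knockout arrays, against 4.87 and 4.98 on the wild-type arrays. The genotypes did not overlap, with both knockout arrays below both wild-type arrays, and Mmp10 was the only probe set of the 13 with that order. The difference was -0.12 (SE 0.075, interval -0.31 to 0.066, limma adjusted p = 0.811).

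Mmp11, stromelysin-3, is made by fibroblasts next to epithelium and, unlike most secreted members, leaves the cell already activated by furin. It had 6.60 and 6.70 on the knockout arrays, against 6.55 and 6.91 on the wild-type arrays. The wild-type arrays enclosed the knockout arrays, and their gap of 0.36 was more than the difference of -0.086 (SE 0.130, interval -0.41 to 0.24, adjusted p = 0.950). Its sign turned when wild type 2 was left out, to 0.093. Furin had 7.88 and 7.80 on the knockout arrays, against 7.77 and 7.81 on the wild-type arrays, a difference of 0.054 (limma adjusted p = 0.932); it was named for its role, outside the rule for partner genes.

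The collagenases Mmp8 and Mmp13, which cut native fibrillar collagen, and the macrophage elastase Mmp12 stayed within the range of the nonspecific controls. Mmp8, the neutrophil collagenase, had 3.98 and 3.91 on the knockout arrays, against 3.82 and 3.96 on the wild-type arrays. Mmp12 had 3.59 and 3.56 on the knockout arrays, against 3.51 and 3.64 on the wild-type arrays. Mmp13, the main collagenase of mouse bone and cartilage, had 3.28 and 3.11 on the knockout arrays, against 3.25 and 3.24 on the wild-type arrays. All 3 overlapped between genotypes, with differences of 0.055 for Mmp8, 0.0021 for Mmp12 and -0.047 for Mmp13, and limma adjusted p-values from 0.946 to 1.00. Averaged over the arrays, 5 of the 23 controls were brighter than Mmp8, 8 were brighter than Mmp12 and 12 were brighter than Mmp13. Of 9 bone and cartilage markers 0 exceeded every control on all arrays, against 43.5% of all genes. Sp7, Bglap and Col2a1 did exceed the 95th percentile of the controls on all arrays, and the other markers did not. Summed signals of the list were 295 and 292 on the knockout arrays, against 291 and 301 on the wild-type arrays. Small differences in these genes may be missed at such levels, and no detection limit was computed.

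Mmp19, a secreted enzyme found in skin and vessels among other tissues, was read by probe sets that went opposite ways. The brighter one, 1421977_PM_at, had 5.22 and 5.42 on the knockout arrays, against 5.38 and 5.45 on the wild-type arrays. The dimmer one, 1421976_PM_at, had 4.84 and 4.93 on the knockout arrays, against 4.92 and 4.82 on the wild-type arrays. Both overlapped between genotypes, with differences of -0.094 (SE 0.092, interval -0.32 to 0.14, limma adjusted p = 0.893) and 0.017 (SE 0.077, interval -0.18 to 0.21, limma adjusted p = 0.995).

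Mmp23 differs from the secreted members in that an N-terminal segment anchors the proenzyme in the membrane until cleavage releases it, and in that it lacks the hemopexin-like domain most of the others carry. Its probe set 1417281_PM_a_at had 8.60 and 8.78 on the knockout arrays, against 8.47 and 8.40 on the wild-type arrays. Both knockout arrays lay above both wild-type arrays, by 0.25 in the mean (SE 0.088, interval 0.033 to 0.48, 1.19-fold, limma unadjusted p = 0.0312, adjusted p = 0.732). The other probe set, 1417282_PM_at, had 9.19 and 9.44 on the knockout arrays, against 9.19 and 9.07 on the wild-type arrays. Knockout 1 and wild type 1 were all but level there, and the difference of 0.19 (SE 0.106, interval -0.076 to 0.45, limma adjusted p = 0.798) rested mainly on knockout 2, without which it was 0.065. The same array was the high one for both probe sets, which are annotated to the same gene and are not independent. Without knockout 2 the first probe set had 0.16, and without knockout 1 the probe sets had 0.34 and 0.31. Knockout 2 was also the array with the highest signal of skeletal muscle markers: all 9 had positive differences, with sums of 1055 and 1582 on the knockout arrays, against 1141 and 908 on the wild-type arrays. The genotypes did not overlap in 3 of the 9, against 37.6% of all genes. Only Myl1 exceeded every control on all arrays, and it weighs most in the sums. Myl1 had 9.74 and 10.10 on the knockout arrays, against 9.81 and 9.45 on the wild-type arrays. The fibroblast sum was likewise highest on knockout 2, and the part of either list in the Mmp23 values was not tested.

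Over the 4 arrays the genes whose centred values came nearest to those of Mmp23 (1417282_PM_at) were Adamts9, a secreted metalloproteinase of another family, with a root mean square difference of 0.013, and Dtx2, a ubiquitin ligase of the Notch pathway, with 0.015. They were chosen among 10228 probe sets with exactly 1 symbol that exceeded every control on all arrays. Of these, 168 came within 0.05 of Mmp23, so the likeness over 4 arrays is shared by many probe sets. Each member gene entered the search by 1 probe set, the one with the highest mean. Other genes were taken by their nearest probe set. No other member gene met the rule of the search. It asked of the member's probe set for values above every control on all arrays and a range of at least 0.3.

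**Figure D4:**
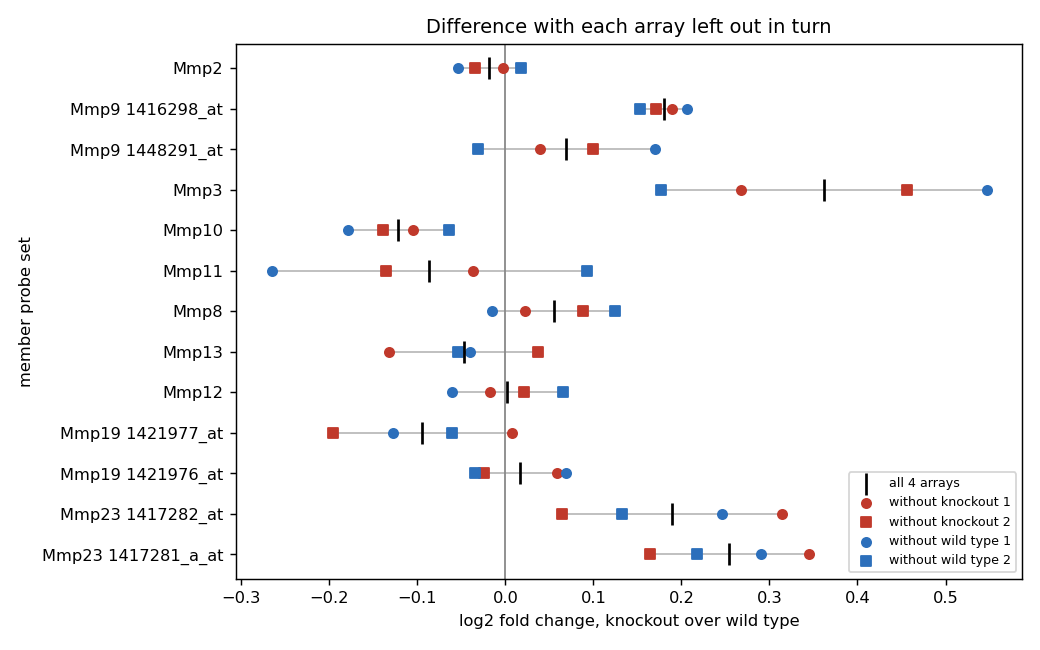
Log2 fold change of knockout over wild type (horizontal axis) for each member probe set with all 4 arrays (black bar) and with each array left out in turn (coloured points). Mmp3, Mmp10, Mmp23 and the brighter Mmp9 probe set keep their sign throughout, and Mmp3 runs from 0.18 to 0.55.

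The partners of these enzymes are given by 1 probe set a gene, the one with the highest mean. In each of the 6 lists of partners 0 genes passed by limma, against 0.00585% of 17097 genes. At an unadjusted p under 0.05 there were 3 (Bsg, Junb and Etv5), against 7.36% of genes. Bsg was 1 of 10 activators and docking proteins, and Junb and Etv5 were among 15 inducers. The lists of 5 inhibitors, 4 membrane-type enzymes, 4 other secreted enzymes and 15 matrix substrates had 0. The median difference over all genes was -0.0022, and 48.8% were above 0. Among 5 measured inhibitors 3 had positive differences (median 0.036). Timp2, which also helps the membrane-type enzymes to activate Mmp2, had 11.31 and 11.30 on the knockout arrays, against 11.21 and 11.17 on the wild-type arrays (0.11, SE 0.067, limma adjusted p = 0.811). Timp3, the matrix-bound inhibitor, had 0.085, the membrane-anchored inhibitor Reck had 0.036, and Timp1 had -0.099. All 4 measured membrane-type enzymes had negative differences, from -0.12 for Mmp16 to -0.022 for Mmp14, with a median of -0.10. Of these, only Mmp14 exceeded every control on all arrays, against 43.5% of all genes. Among the other secreted enzymes Mmp7, matrilysin, had 0.089, and Mmp1a, Mmp1b and Mmp20 lay between 3.22 and 3.83 on all arrays, below the second highest control.

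Among 10 measured activators and docking proteins 7 had positive differences (median 0.033). Bsg, basigin, a surface protein that induces metalloproteinases in neighbouring fibroblasts, had 10.75 and 10.80 on the knockout arrays, against 10.57 and 10.61 on the wild-type arrays. The genotypes did not overlap, and the difference was 0.18 (SE 0.068, limma unadjusted p = 0.0409, adjusted p = 0.746). Cd44, a hyaluronan receptor that can hold Mmp9 at the cell surface, had -0.096, Lcn2, which binds Mmp9, had -0.074, and Plg, plasminogen, had 0.093 at values below the second highest control.

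Of 15 measured inducers 9 had positive differences (median 0.024), and the genotypes did not overlap in 8, against 37.6% of all genes. Junb, an AP-1 subunit, had 5.70 and 5.90 on the knockout arrays, against 5.20 and 5.33 on the wild-type arrays (0.54, SE 0.097, limma unadjusted p = 0.00196, adjusted p = 0.673). Jun had 8.79 and 9.10 on the knockout arrays, against 8.64 and 8.74 on the wild-type arrays (0.25, adjusted p = 0.777). Fos, named after its values were seen, had 6.99 and 7.64 on the knockout arrays, against 6.80 and 6.93 on the wild-type arrays (0.45, adjusted p = 0.777). The other AP-1 genes of the list, Fosb, Fosl1 and Fosl2, had -0.043, 0.024 and 0.049. Junb lay under the highest control on every array. Fos exceeded that control on the knockout arrays and lay just under it on the wild-type arrays. It had 6.80 against 6.84 on wild type 1 and 6.931 against 6.934 on wild type 2. The ETS factors Ets2 and Etv5 had 0.23 and -0.21.

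Of 15 measured matrix substrates 12 had positive differences, with a median of 0.055, and all 15 exceeded every control, against 43.5% of all genes. Negative differences were those of Col1a2 (-0.076), Vcan (-0.051) and Lamb1 (-0.024). Col1a1, a chain of type I collagen, had 12.26 and 12.29 on the knockout arrays, against 12.18 and 12.02 on the wild-type arrays (0.18, adjusted p = 0.773). The basement membrane chains Col4a1 and Col4a2 had 0.14 and 0.15, and elastin (Eln) had 0.12. The summed signal of the 15 substrates was 49614 and 52134 on the knockout arrays, against 49890 and 46580 on the wild-type arrays, lowest on wild type 2.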

How the data were processed

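Expression was measured on 4 Affymetrix arrays of mouse inguinal mammary gland, 2 per genotype. The authors deposited RMA values on a log2 scale, 1 for each probe set, computed with affy, per the submitters' processing notes. Version and options were not given in the sources used here. The method subtracts background, gives the arrays one intensity distribution and summarises probes, so a shift shared by most genes is removed and changes of dim genes are compressed. The table has 45141 rows, of which 104 are array controls. The platform annotation gives 28898 probe sets 1 symbol, 551 several and lists none for 15588; symbols were matched by gene ID to RefSeq (GRCm38.p6), which was used only for names, gene order and promoter sequences.

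All 45037 non-control probe sets were fitted in limma 3.58.1 (R 4.3.3) by lmFit and eBayes with genotype as the sole term and no filter. Tests were two-sided, with Benjamini-Hochberg adjustment across the whole table (threshold 0.05; 2 residual and 3.43 prior degrees of freedom). For arrays, their number limits the precision: the median SE over all probe sets was 0.081. The steps were tested on simulated data. Tables were made with pandas 2.3.3 in Python 3.11.15. Levels were set against the 23 nonspecific control probe sets. Every member probe set is reported, and from each partner or marker list up to 4 genes of smallest p could be named; exceptions to a count are named too, after their values were seen. The members and lists were chosen with earlier results of these data known. Alternatives changed the scaling (quantile, median centring), the probe sets tested (brighter, 1 or their mean per gene), the variance model (trend, robust), the block (replicate number), the arrays (leaving out 1) and the control level. Same-numbered arrays did not deviate together: the correlation of their deviations over probe sets was -0.295. The labels do not say that the arrays of a genotype come from separate litters, so the p-values measure only the spread between these arrays.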

Additional observations from a re-analysis of the deposited data

How the results depend on the processing

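No member probe set passed under any of the settings run; the lowest adjusted p by limma was 0.434, for Mmp3 without wild type 1. Over 154 values of the 13 member differences, 11 had the opposite sign to the reported one. Of these 10 came from leaving out 1 array, where the differences ran from -0.054 to 0.018 for Mmp2, -0.031 to 0.17 for the dimmer Mmp9 probe set, -0.27 to 0.093 for Mmp11, -0.015 to 0.12 for Mmp8, -0.13 to 0.037 for Mmp13, -0.061 to 0.065 for Mmp12, -0.20 to 0.0070 for 1421977_PM_at and -0.035 to 0.069 for 1421976_PM_at of Mmp19. The other was Mmp12 with median centring, at -0.0038. The cause was not tested. The number of probe sets called by limma was 2 as reported, 5 with quantile normalization, with median centring, with an intensity trend and with robust variances, 1 with 1 probe set a gene, 0 with probe sets averaged by gene (1185 at an unadjusted p under 0.05), and 0 to 5 with 1 array left out, where the lone array is assumed as variable as the opposite genotype. With the replicate number as a block 0 were called (3131 at an unadjusted p under 0.05), and Mmp3 had the same difference with an unadjusted p of 0.0131 and an adjusted p of 0.714. The crossed pairing, added after seeing the data because same-numbered arrays deviated in opposite ways, called 0 by limma (2558 at an unadjusted p under 0.05). Member probe sets above every nonspecific control numbered 3 as reported, 9 against the 95th percentile of the controls, 12 against their median, 4 by the mean over the arrays, and 3 to 4 with 1 array left out. With 2 arrays per genotype, small differences of any member could be missed. Mmp8, Mmp12 and Mmp13 also had values within the range of the controls.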
